A study of Mus musculus with 6 samples.

Results

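Of the 1066 Sox6 peaks common to both ChIP experiments, 209 (19.6%) lay outside every RefSeq-supported gene but within 20 kb of one. They were found by the centre of each deposited peak on NCBI Build 37 (mm9) and assigned to the nearest gene end, by the longest model of each gene. The peak was upstream of the transcription start site for 118 and downstream of the transcript end for 91. Another 587 common peaks lay inside genes and 270 lay farther than 20 kb from any gene. The choice used positions only and no measured value beyond the authors' peak calls. All libraries came from myotubes of wild type C57BL/6 mice, grown from fetal (E18.5) primary myoblasts at passage 17 and kept for 48 h in differentiation medium with 2% horse serum. There were 2 libraries each of Sox6 ChIP, Pol II ChIP and input DNA, the chromatin before immunoprecipitation, with no second genotype or treatment. Whether the myoblasts came from 1 or several fetuses is not given in the sources used here, so the p-values below measure the spread between these libraries.

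Sox6 is an HMG box transcription factor of the SoxD group. It has no activation or repression domain of its own and acts through partner proteins. In skeletal muscle it is known for holding slow fiber genes down in fetal and fast fibers. A site just upstream of a gene can act as its promoter or a proximal enhancer, and a site past the transcript end can act as a downstream enhancer or belong to the next gene. The Pol II antibody marks where the transcribing enzyme sits, including the stretch past a transcript end where it has not yet been released.

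The sequences of 11 peaks are given here because they lie beside the genes on which the results turn. Each is a window of 200 bp around the peak centre, read from the mm9 genome, and each centre lies outside every RefSeq-supported gene. Capitals mark matches, on either strand, to 4 motifs: Sox (ACAAAG or ACAATG), E-box (CAGCTG or CAGGTG, the site of MyoD and its relatives), Runx (CCACA) and Tead/MCAT (GGAATG). Adjoining or overlapping matches run together in capitals. The upstream windows belong to 2 subunits of the muscle acetylcholine receptor, a histone deacetylase and 2 myosin heavy chains.
Chrna1, 96 bp upstream, chr2:73418392-73418591, plus strand: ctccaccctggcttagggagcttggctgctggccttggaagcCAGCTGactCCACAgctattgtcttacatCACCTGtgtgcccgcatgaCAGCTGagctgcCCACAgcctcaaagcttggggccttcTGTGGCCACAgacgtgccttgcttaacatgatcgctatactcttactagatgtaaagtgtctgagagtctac
Chrng, 135 bp upstream, chr1:89102152-89102351, plus strand: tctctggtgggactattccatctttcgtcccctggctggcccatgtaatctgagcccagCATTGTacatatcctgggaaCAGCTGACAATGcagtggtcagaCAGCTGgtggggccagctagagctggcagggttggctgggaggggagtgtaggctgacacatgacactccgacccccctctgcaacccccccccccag
Hdac11, 388 bp upstream, chr6:91106172-91106371, plus strand: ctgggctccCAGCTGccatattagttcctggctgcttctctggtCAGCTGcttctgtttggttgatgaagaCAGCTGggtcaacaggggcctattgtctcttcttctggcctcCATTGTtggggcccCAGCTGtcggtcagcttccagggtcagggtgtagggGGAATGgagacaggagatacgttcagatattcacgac
Myh7, 150 bp upstream, chr14:55613522-55613721, plus strand: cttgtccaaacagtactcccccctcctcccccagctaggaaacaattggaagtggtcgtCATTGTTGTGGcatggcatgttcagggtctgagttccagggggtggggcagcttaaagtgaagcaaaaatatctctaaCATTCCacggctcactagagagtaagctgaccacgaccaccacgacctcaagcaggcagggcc
Myh7, 2810 bp upstream, chr14:55616182-55616381, plus strand: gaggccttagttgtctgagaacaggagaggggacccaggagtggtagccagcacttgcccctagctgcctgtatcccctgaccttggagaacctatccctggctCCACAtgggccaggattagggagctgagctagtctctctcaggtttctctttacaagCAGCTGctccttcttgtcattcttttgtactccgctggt
Myh1, 323 bp upstream, chr11:67013132-67013331, plus strand: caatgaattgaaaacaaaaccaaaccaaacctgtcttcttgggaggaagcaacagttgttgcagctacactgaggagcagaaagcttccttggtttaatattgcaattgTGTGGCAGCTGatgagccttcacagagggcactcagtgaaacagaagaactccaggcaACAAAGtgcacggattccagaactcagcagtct
The downstream windows belong to troponin C, myoglobin, a Runx factor, a muscle microRNA and the embryonic myosin heavy chain.
Tnnc1, 876 bp downstream, chr14:32025692-32025891, plus strand: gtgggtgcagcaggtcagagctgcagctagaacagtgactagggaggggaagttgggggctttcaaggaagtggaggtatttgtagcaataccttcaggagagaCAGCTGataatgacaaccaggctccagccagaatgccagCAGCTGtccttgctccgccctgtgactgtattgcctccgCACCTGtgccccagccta
Mb, 1398 bp downstream, chr15:76844422-76844621, plus strand: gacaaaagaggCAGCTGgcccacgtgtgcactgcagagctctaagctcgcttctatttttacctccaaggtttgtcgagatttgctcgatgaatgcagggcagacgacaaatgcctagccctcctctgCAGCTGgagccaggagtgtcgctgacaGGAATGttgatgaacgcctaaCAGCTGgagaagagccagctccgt
Runx3, 13836 bp downstream, chr4:134747642-134747841, plus strand: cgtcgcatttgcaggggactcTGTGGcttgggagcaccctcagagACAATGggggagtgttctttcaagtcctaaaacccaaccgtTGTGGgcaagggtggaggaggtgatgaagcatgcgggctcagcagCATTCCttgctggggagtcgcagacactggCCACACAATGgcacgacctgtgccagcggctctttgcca
Mir133a-2, 1834 bp downstream, chr2:180134922-180135121, plus strand: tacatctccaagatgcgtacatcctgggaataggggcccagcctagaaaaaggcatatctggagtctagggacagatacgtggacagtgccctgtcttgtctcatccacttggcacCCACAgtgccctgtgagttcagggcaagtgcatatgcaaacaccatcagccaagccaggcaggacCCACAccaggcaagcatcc
Myh3, 1018 bp downstream, chr11:66916712-66916911, plus strand: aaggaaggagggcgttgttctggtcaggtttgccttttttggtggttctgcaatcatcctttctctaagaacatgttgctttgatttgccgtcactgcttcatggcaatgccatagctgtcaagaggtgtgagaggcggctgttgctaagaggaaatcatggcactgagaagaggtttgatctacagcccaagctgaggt
The window upstream of Chrna1 held E-boxes and Runx matches but no Sox match, and that of Chrng held Sox matches and E-boxes. The proximal Myh7 window held a Sox match next to a Runx match and a Tead/MCAT match, whereas the window beside Myh3 held none of the 4 motifs. The distal Myh7 window held no Sox match, but its peak of 840 bp is wider than the window. The paper reports a Sox motif in that distal region.

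The 2 sides did not differ in density beyond their intervals. Per Mb of genome that lay within 20 kb and outside genes there were 0.550 upstream peaks (exact 95% Poisson interval 0.455 to 0.658) and 0.470 downstream peaks (0.378 to 0.577). Inside genes there were 0.590 common peaks per Mb (0.543 to 0.640). Beyond 20 kb the density was 0.234 (0.207 to 0.263), below the interval of either side. The first kb held 12 upstream peaks (0.665 per Mb, 0.344 to 1.16) and 10 downstream peaks (0.547, 0.262 to 1.01), and both intervals include the density of the whole side. Between 15 and 20 kb, 18 peaks were upstream (0.506, 0.300 to 0.800) and 7 downstream (0.228, 0.0918 to 0.471), with overlapping intervals. These intervals cover counting error only. The median distance was 7187 bp upstream and 5300 bp downstream.

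**Figure D1:**
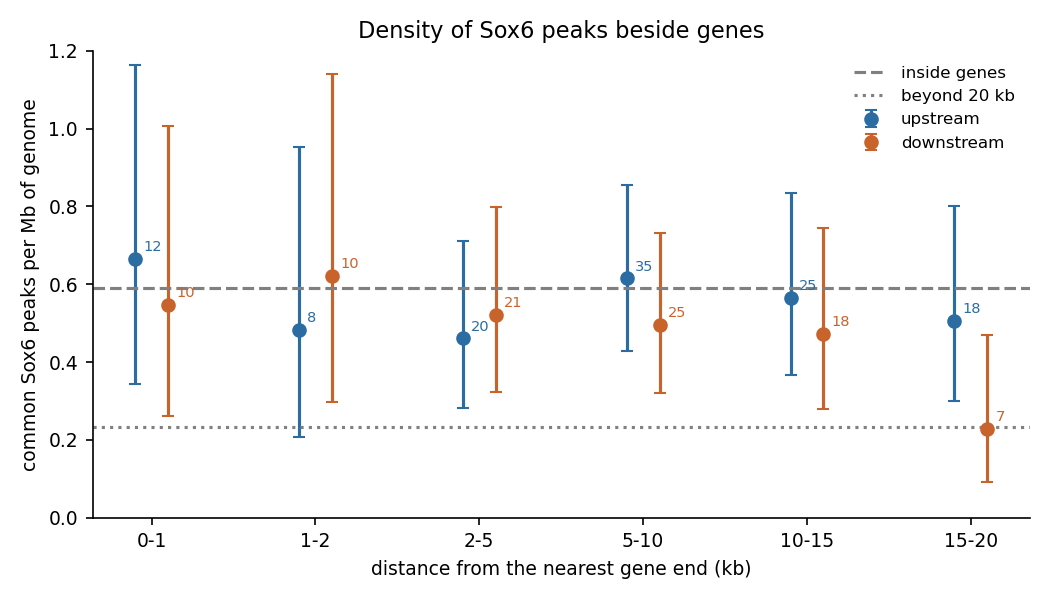
Common Sox6 peaks per Mb of genome (vertical axis) by distance from the nearest gene end in kb (horizontal axis), upstream and downstream, with exact 95% Poisson intervals and the number of peaks beside each point. The dashed line is the density inside genes (0.590) and the dotted line that beyond 20 kb (0.234), and the point that reaches the dotted line is 15 to 20 kb downstream, with 7 peaks.

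The 209 peaks belonged to 199 genes, 115 with upstream and 84 with downstream peaks, and no gene had peaks on both sides. There were 9 genes with 2 or more, namely Myh7, Palld and Fchsd2 upstream and Myh3, Mir133b, Mir133a-2, Bod1, Gm4577 and Epb4.1l2 downstream. Of the 199 genes, 21 also had a common peak inside. The side of a peak was ambiguous for some: 71 had a second gene within 20 kb in the other direction. Of the downstream peaks, 18 lay within 20 kb upstream of that second gene. An example, chosen after its values were seen, is the peak 2823 bp downstream of Lad1, which lay 4711 bp upstream of Tnnt2, the cardiac troponin T. When every gene of the annotation was used, each side had 113 peaks. With protein-coding RefSeq-supported genes only, 126 were upstream and 78 downstream.

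The Sox6 libraries held 2985437 and 1468604 reads, the Pol II libraries 1538757 and 2762155, and the inputs 21973495 and 24249850. Pol II over gene bodies was set beside markers of the labelled and of other cell types. All 12 muscle markers had more Pol II than input, with a median of 30.5 and 31.8 RPKM in the 2 Pol II libraries against 0.723 and 0.757 in the inputs (RPKM, reads per kilobase of gene and 1000000 reads of the library). None of the 9 fibroblast, 5 neuron, 4 endothelium and 3 fat markers did, while Cd68 (7.03 and 7.83 RPKM) and Csf1r (0.593 and 0.633 RPKM) of the 3 immune markers did. The summed level of the fibroblast markers was 2.90 and 2.70 RPKM in Pol II and 4.59 and 4.28 in input.

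Sox6 enrichment overlapped between the sides. In windows of 450 bp, upstream peaks had a median of 5.36 and 6.81 reads per 1000000 reads of the library (RPM) in the Sox6 libraries and 0.455 and 0.536 in the inputs. Downstream peaks had 4.69 and 6.81 RPM for Sox6 and 0.455 and 0.495 for input. At 208 of the 209 peaks the lower Sox6 value was above the higher input value. With limma, 207 flanking peaks had more Sox6 than input, all 118 upstream and 89 of 91 downstream, where 96.8% of all common peaks did. The peaks were called on these reads, so this describes them and is not independent evidence. On the log2 scale the median enrichment was 3.61 upstream and 3.59 downstream. The level depended on the setting: over both sides it was 3.59, but 2.63 with 0.5 RPM added in place of 0.5 reads. In windows of 1000 and 200 bp it was 2.95 and 3.91. The difference between the sides (upstream minus downstream, ChIP minus input) was 0.04 on the log2 scale, which the libraries could not distinguish from 0 (exact permutation test over 2 against 2 libraries, two-sided, p = 1; the design cannot go below 0.333). The median window held 15 and 10 Sox6 reads, so single ratios carried a standard error of 0.44 or more.

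**Figure D2:**
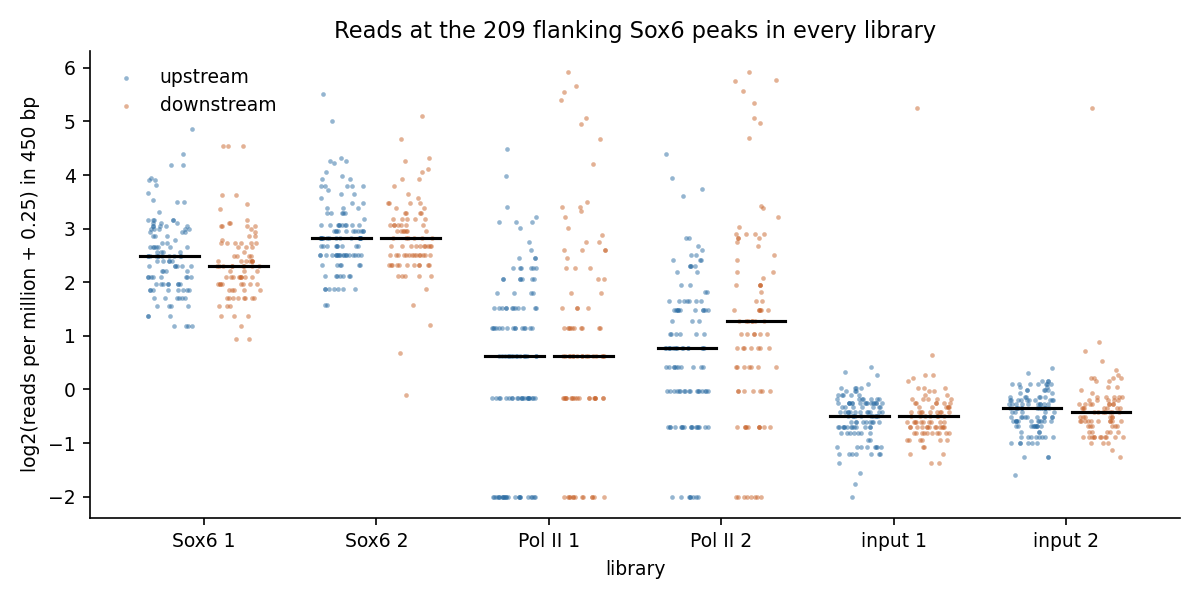
RPM in 450 bp at each of the 209 flanking peaks, as log2 of the value plus 0.25, by library and side, where each point is 1 peak and the bar is the median. The Sox6 medians of both sides lie above the input medians and the sides overlap, Pol II is widely spread, and the single high input point downstream is the Dpy19l2 peak with 37.8 and 37.7 RPM.

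Genes of the contractile apparatus stood on both sides. Of 66 genes of the sarcomere and contraction list, 9 (13.6%) had a flanking peak, beside 0.863% of all gene symbols. A common peak of any kind was at 20 of the 66, beside 867 of 23061 symbols. The high share was thus not particular to flanking peaks. The list was chosen with earlier results of these data known, so no test is given. Upstream were Myh1, Myh2, Myh7, Myh7b and Myl2, and downstream Myh3, Myl4, Tnnc1 and Tpm1.

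Myh7 encodes the slow myosin heavy chain, MyHC-β, and had 2 upstream peaks. The proximal peak, 150 bp from the start site, had 4.02 and 5.45 RPM of Sox6 and 0.182 and 0.289 RPM of input. The distal one, at 2810 bp, had 12.4 and 19.7 RPM of Sox6 and 0.364 and 0.289 RPM of input. Both Sox6 libraries thus read higher at the distal peak, whose log2 ratio was 5.52 ± 0.45 (SE) against 4.29 ± 0.67 at the proximal one. Over the Myh7 gene Pol II was low but above input, with 0.950 and 1.22 RPKM and a log2 ratio of 1.30 (limma, adjusted p = 0.000105).

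The other upstream peaks of the list ranged from 323 to 7981 bp. Myh1, a fast adult myosin, had 3.35 and 4.77 RPM of Sox6 at 323 bp against 0.410 and 0.247 RPM of input. Myh7b, which hosts a microRNA of slow muscle, had 8.04 and 18.4 RPM at 4617 bp against 0.501 and 0.536 RPM. Myl2, the slow and ventricular regulatory light chain, had 3.01 and 10.2 RPM at 7981 bp against 0.455 and 0.289 RPM. Myh2, the fast IIa myosin, had 7.03 and 6.13 RPM at 5868 bp against 0.546 and 0.825 RPM. Pol II was above input over Myh7b (2.39 and 2.37 RPKM) and Myh1 (1.32 and 1.34 RPKM). Over Myh2 it was below input, at 0.221 and 0.301 RPKM. Over Myl2 it was 0.364 and 0.0580 RPKM and did not pass the test (adjusted p = 0.114).

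Of the 4 genes of the list with a downstream peak, 3 had Pol II above input in the peak window, a share near the 62.6% of all downstream peaks. Myh3, the embryonic myosin, had 3.68 and 4.09 RPM of Sox6 at 1018 bp and 3.35 and 5.45 RPM at 2388 bp. At these places Pol II reached 50.7 and 47.4 RPM and 18.2 and 31.1 RPM, against inputs of 0.536 RPM or less. The Pol II log2 ratio at the nearer peak, 6.82 ± 0.37 (SE; limma, adjusted p = 2.4e-19), was the largest of all flanking peaks. Myl4, the embryonic and atrial essential light chain, had a peak of 1560 bp, the widest of all flanking peaks, 1552 bp past its end. It had 4.02 and 6.13 RPM of Sox6 and 60.4 and 60.5 RPM of Pol II, with 0.956 and 1.03 RPM of input. Tnnc1, the slow and cardiac troponin C, had 7.03 and 7.49 RPM of Sox6 and 25.3 and 25.7 RPM of Pol II at 876 bp, against 0.592 and 0.454 RPM of input. Tpm1, a tropomyosin, differed from these. Its peak, 10046 bp past the end, had 3.35 and 6.13 RPM of Sox6 but 0.650 and 0.362 RPM of Pol II, although Pol II over the gene was 13.3 and 14.2 RPKM. Myl7, the atrial regulatory light chain, is not on the list and is named after its values were seen. Its peak, 5179 bp downstream, had 4.02 and 6.13 RPM of Sox6 and 1.95 and 2.17 RPM of Pol II, above the input of 0.319 and 0.289 RPM (limma, adjusted p = 0.000363), and Pol II over the gene was 0.303 and 0.337 RPKM.

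Genes of excitation had upstream peaks at 3 of the 43 listed (6.98%, beside 0.863% of all gene symbols with a flanking peak). A common peak of any kind was at 7 of the 43. Chrna1 and Chrng, the alpha and gamma subunits of the acetylcholine receptor, carried peaks 96 and 135 bp from the start site. These were the upstream peaks nearest to a gene by its longest model. The Cnot6l peak, at 2262 bp by that model, lay 81 bp from another start of its gene. Sox6 was 5.36 and 5.45 RPM at Chrna1 and 5.69 and 10.9 RPM at Chrng, with inputs of 0.577 RPM or less. Pol II in the same windows was 15.6 and 11.9 RPM at Chrna1 and 5.85 and 15.2 RPM at Chrng, both above input (log2 ratios 4.57 ± 0.39 and 4.48 ± 0.46, SE; limma, adjusted p = 4.59e-13 and 5.98e-11). Over the genes it was 16.5 and 19.2 RPKM and 21.7 and 24.1 RPKM. Windows of 450 bp centred this near a start site reach into the gene, so window and gene can share reads. Sln, sarcolipin, an inhibitor of the calcium pump, had a peak 1547 bp upstream with 3.68 and 5.45 RPM of Sox6, and Pol II over Sln did not pass the test (1.08 and 0.806 RPKM, adjusted p = 0.399).

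Among 66 muscle transcription regulators, 4 had a flanking peak (6.06%, beside 0.863% of all gene symbols) and 21 a common peak of any kind. Hdac11, a histone deacetylase, had the highest Sox6 reading upstream among those with a flanking peak. It had 28.8 and 45.6 RPM 388 bp from the start site, against 0.637 and 0.825 RPM of input. Msc, a repressor of MyoD-type factors, had 4.35 and 7.49 RPM of Sox6 at 19434 bp. Runx3 had 12.1 and 17.0 RPM at 13836 bp downstream and 0 Pol II reads in both libraries there, which allows up to 1.95 and 1.09 RPM (3 reads). Tcf4, an E protein, had 3.01 and 4.77 RPM at 17052 bp downstream, and Pol II over the gene was 2.63 and 2.71 RPKM.

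The other lists held few. Mb, myoglobin, the oxygen store of oxidative fibers, was the single gene of 31 in muscle metabolism (3.23%, beside 0.863% of all gene symbols). No other gene of that list had a common peak of any kind. Mb had 4.02 and 6.13 RPM of Sox6 and 9.10 and 7.96 RPM of Pol II 1398 bp past its end. Ncam1, an adhesion molecule of myoblasts, had 5.02 and 8.17 RPM of Sox6 at 16067 bp upstream. Notch1, a receptor that holds myoblasts undifferentiated, had 2.68 and 4.09 RPM at 15465 bp upstream. Of 22 genes listed as Sox6 targets in cartilage and red cells, 0 had a common peak, flanking or other, beside 867 of 23061 symbols (the 23274 genes share some), so that 0 among so few genes is no result about the list.

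MicroRNA genes were nearest to 5 downstream peaks (2 of Mir133b, 2 of Mir133a-2 and 1 of Mir129-1) and to 1 upstream peak. Mir206 and Mir133b are neighbours on chromosome 1, and both are muscle microRNAs. Their mature sequences, from RefSeq (GRCm38.p6), are given with the seed (bases 2 to 8) in capitals. The seeds differ.
mmu-miR-206-3p: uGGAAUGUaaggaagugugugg
mmu-miR-133b-3p: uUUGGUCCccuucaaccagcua
The peak 11210 bp upstream of Mir206 (chosen after its values were seen) had 6.03 and 6.13 RPM of Sox6 and 10.4 and 13.03 RPM of Pol II, against 0.455 and 0.619 RPM of input. The peaks 2543 and 3363 bp downstream of Mir133b had 4.02 and 8.17 RPM and 7.70 and 4.09 RPM of Sox6. Pol II there was 30.5 and 53.9 RPM and 46.8 and 54.7 RPM. Mir133a-2, on chromosome 2, had downstream peaks at 1834 and 4284 bp, with 4.69 and 4.77 RPM and 4.69 and 7.49 RPM of Sox6. Pol II was 42.2 and 40.5 RPM and 33.1 and 33.3 RPM. All 4 windows beside the Mir133 genes had Pol II far above the input of 0.774 RPM or less, and their centres lay outside every RefSeq-supported gene. Mir133b is annotated only at chr1:20672850-20672968 and Mir133a-2 only at chr2:180133084-180133187, so downstream means past those ends. Whether the windows lie in a longer transcript was not tested. The peak 9520 bp downstream of Mir129-1, by contrast, had 4.02 and 4.09 RPM of Sox6 and 0 Pol II reads in both libraries.

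The Pol II libraries were not used to call the Sox6 peaks, but the inputs they are compared with were the background of those calls. With limma, 115 of the 209 flanking peaks (55.0%, exact 95% binomial interval 48.0 to 61.9%) had more Pol II than input and 1 had less, where 57.2% of all common peaks had more. The share was 58 of 118 upstream (49.2%, 39.8 to 58.5%) and 57 of 91 downstream (62.6%, 51.9 to 72.6%). The median window held 2 and 4 Pol II reads upstream and 2 and 6 downstream, and 37 and 16 of the 209 windows held none, so a peak without a call may still carry Pol II. With either input left out fewer peaks were called, flanking and all common peaks alike. The median log2 ratio of the flanking peaks was then 1.70 (without input replicate 1) and 1.73 (without replicate 2), against 1.73 with both. The level depended on other settings: it was 0.93 with 0.5 RPM added in place of 0.5 reads. In windows of 1000 and 200 bp it was 1.46 and 2.14. The difference between the sides was -0.32 on the log2 scale, lower upstream. It was not distinguishable at this size (exact permutation test, two-sided, p = 0.667), and came from Pol II replicate 2 (-0.53) more than from replicate 1 (0). By distance, 9 of 12 upstream windows within the first kb were called (interval of the share 42.8 to 94.5%), 16 of 28 between 1 and 5 kb (37.2 to 75.5%), 13 of 35 between 5 and 10 kb (21.5 to 55.1%) and 20 of 43 between 10 and 20 kb (31.2 to 62.3%), which overlap. Downstream, 7 of 10 were called within the first kb (34.8 to 93.3%), 24 of 31 between 1 and 5 kb (58.9 to 90.4%), 17 of 25 between 5 and 10 kb (46.5 to 85.1%) and 9 of 25 between 10 and 20 kb (18.0 to 57.5%). No test was made across distances. The windows of 450 bp centred nearest to a gene end reach into the gene. The Pol II peaks that the authors called lay within 500 bp of 24.6 and 27.1% of upstream peaks in the 2 libraries and of 29.7 and 40.7% of downstream peaks, beside 274 and 341 of all 1066 common peaks. With no reads added, the summed Pol II of all upstream windows was 5.05 and 4.45 times the summed input of the same replicate number.

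In the mean over all peaks of a side, Pol II was higher towards the gene than away from it. The flanking peaks were also ranked by their Pol II ratio at the centre, with both sides pooled. In the stretches 1 to 5 kb from the centre, both directions together, Pol II was 12.1 and 12.1 times input at the highest 70. It was 1.37 and 1.38 times at the next 69 and 0.841 and 0.766 times at the lowest 70. A ranking by Pol II at the centre favours this order. Which peaks carry the difference between the directions was not tested. At downstream peaks the mean was 5.54 and 5.91 RPM per 500 bp just past the centre, 3.37 and 3.84 RPM in the bin that starts 4 kb back towards the gene, and 0.964 and 1.06 RPM in the bin that starts 4 kb away from it. At upstream peaks the mean was 2.31 and 2.18 RPM at the centre, 1.66 and 1.61 RPM in the bin that starts 4 kb towards the gene and 0.479 and 0.359 RPM in the bin that starts 4 kb away. Mean input was between 0.261 and 0.780 RPM in every bin. Mean Sox6 at upstream peaks was 4.02 and 4.92 RPM at the centre and 0.457 and 0.519 RPM in the bin that starts 1 kb towards the gene. At downstream peaks it was 3.61 and 4.69 RPM just past the centre and 0.791 and 1.08 RPM in the bin that starts 1 kb away from the gene. In the bins 1 to 10 kb back towards the gene it was 0.346 to 0.692 RPM in replicate 1 and 0.367 to 0.801 RPM in replicate 2, where input was 0.302 to 0.390 and 0.311 to 0.386 RPM.

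**Figure D3:**
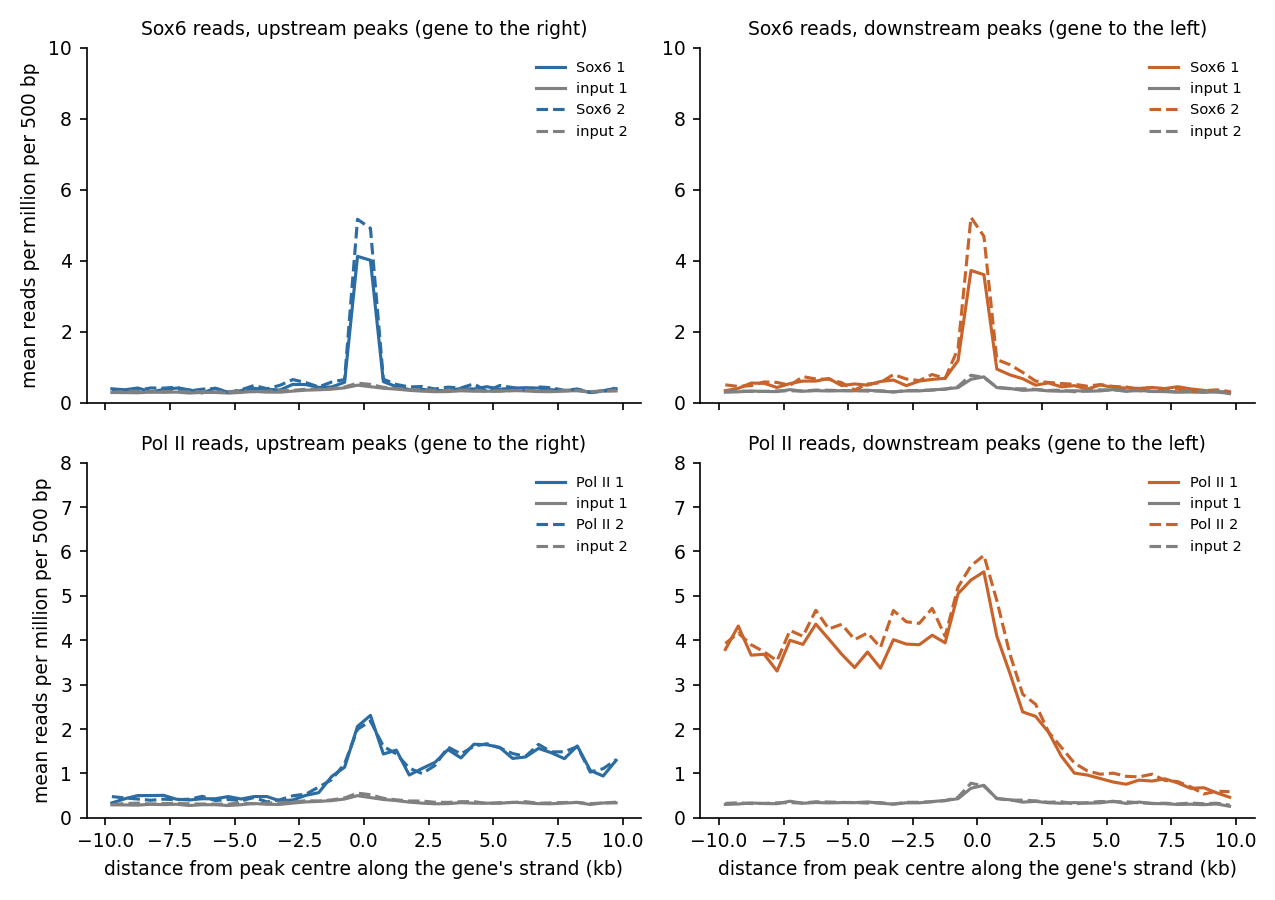
Mean RPM per 500 bp (vertical axis) by distance from the peak centre in kb along the strand of the nearest gene (horizontal axis), for Sox6 (top) and Pol II (bottom) at upstream (left) and downstream (right) peaks, with replicate 1 solid, replicate 2 dashed and input grey. Sox6 is highest around the centre on both sides, and mean Pol II is higher towards the gene than away from it and reaches 5.54 and 5.91 RPM at downstream peaks.

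The height of the downstream profile rested on few peaks. With 10 peaks above a Pol II log2 ratio of 5, a limit chosen after the values were seen, 8 were downstream: both of Myh3, of Mir133b and of Mir133a-2, and those of Myl4 and Tnnc1. These 8 held 60.8 and 61.8% of all Pol II reads at the 91 downstream peaks. Without them the downstream mean was 2.39 and 2.58 RPM in place of 5.56 and 6.17 RPM, against 2.15 and 2.14 RPM upstream without its 2 peaks above 5 (2.37 and 2.30 RPM with them). The called share was then 59.0%, and the difference between the sides was -0.31 without all 10. Summed Pol II downstream was 6.29 and 6.57 times summed input, 2.60 and 2.64 times without these 8, 11.7 and 11.6 times without the Dpy19l2 peak described below, and 5.02 and 4.78 times without all 9. The 2 upstream were those of Kpna1 and Mreg. The Kpna1 ratio, 5.10, rested on input replicate 1, which had 0 reads there beside 24 in replicate 2. The Mreg peak lay 14200 bp from Mreg, with 22.1 and 20.6 RPM of Pol II, and its centre was 77 bp past a U2 small nuclear RNA gene (chr1:72272814-72273004) that the RefSeq-supported set did not hold, 1 of 51 genes of that name in the annotation.

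The 10 peaks also differed in Sox6 away from the centre. In the stretches 1 to 5 kb from the centre, Sox6 was 3.92 and 4.34 times input at these 10, against 1.25 and 1.35 times at the other 199. The stretches were not cleared of other Sox6 peaks. Those of the Myh3 peaks (1018 and 2388 bp past the end) and of the Mir133a-2 peaks (1834 and 4284 bp) hold each other's peak. The part of such neighbouring peaks was not tested. Within 500 bp of the centre it was 8.83 and 9.40 times input at the 10 and 6.70 and 7.88 times at the others, or 7.89 and 9.21 times without the Dpy19l2 peak, and the median log2 ratios were 3.57 and 3.60. A Sox match was present in 2 of the 10 windows (20%, 2.52 to 55.6%) and in 118 of the 199 others (59.3%, 52.1 to 66.2%). The 10 peaks were wider, with a median of 270 bp and at most 1560 bp, against 140 and 840 bp for the others. A window of 200 bp thus covered less of them, and the part of width was not tested. Of the 8 flanking windows with none of the 4 motifs, 4 were downstream, both of Myh3, 1 of Mir133b and that of Tpm1. The part of Pol II in the Sox6 reads of these peaks was not tested.

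**Figure D4:**
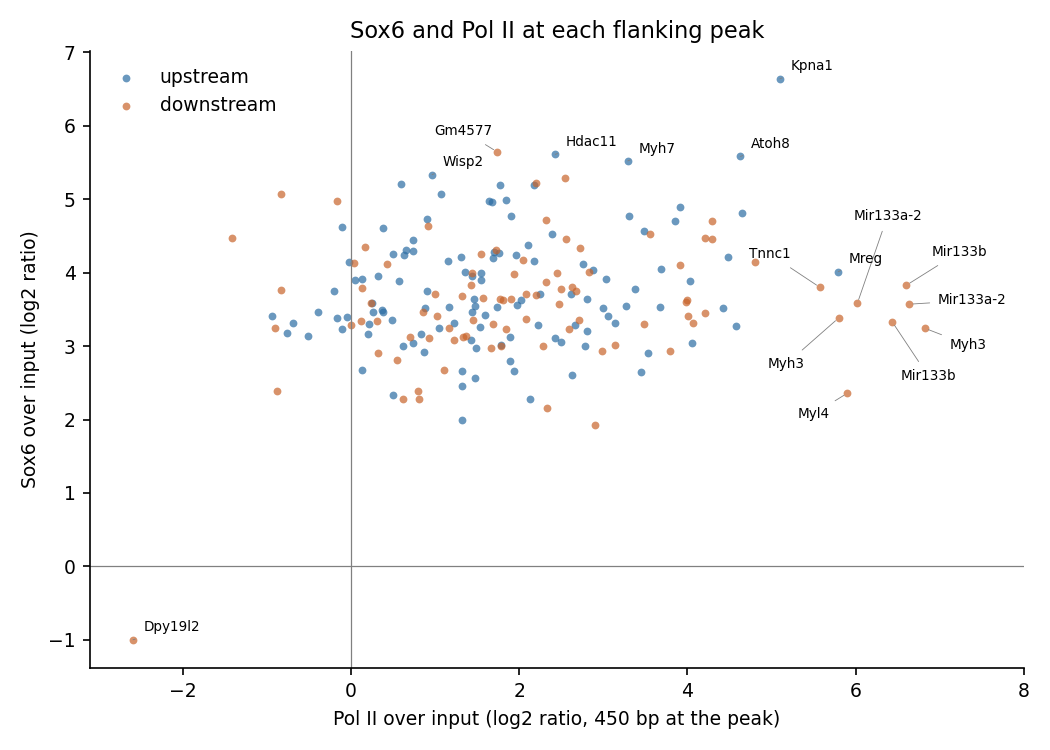
Log2 ratio of Sox6 to input (vertical axis) against log2 ratio of Pol II to input (horizontal axis) in 450 bp at each of the 209 flanking peaks, upstream and downstream, with the outlying peaks named by their nearest gene. The peaks with a Pol II ratio above 5 have Sox6 ratios from 2.36 to 6.64, the highest being that of Kpna1, and the others reach 5.64, and Dpy19l2 is alone below 0 on the Sox6 axis.

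Over whole genes the shares lay the other way round. Pol II was above input over 108 of the 199 genes (54.3%, 47.1 to 61.3%) and below it over 44, where 39.6% of all 23274 genes were above and 5149 were below, so the share below was near that of all genes. Of the 867 genes of all common peaks 57.6% were above, and of the 496 with a peak inside 66.1%. The share above was thus not particular to flanking peaks. Among genes with an upstream peak 70 of 115 were above (60.9%, 51.3 to 69.8%), and among those with a downstream peak 38 of 84 (45.2%, 34.3 to 56.5%). The median level was 1.14 and 1.17 RPKM for the former and 0.620 and 0.630 RPKM for the latter, with inputs of 0.598 and 0.623 RPKM and 0.597 and 0.605 RPKM. The intervals of the 2 shares overlapped. The sides also differed in gene type, since the nearest gene was protein-coding for 115 of the 118 upstream peaks and 74 of the 91 downstream peaks. Shares within a gene type were not taken. Col1a2, a fibrillar collagen, shows how peak and gene could part: the peak 19838 bp downstream had 3.90 and 4.34 RPM of Pol II against 0.364 and 0.619 RPM of input, whereas Pol II over the gene was below input at 0.379 and 0.402 RPKM. Of the 91 downstream peaks, 20 had Pol II above input beside a gene that did not, and of the 118 upstream peaks 16, where 154 of all 1066 common peaks did.

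The motifs are those that the study found in these same peaks, so their presence is not independent evidence. All 4 matched more of the flanking windows than of windows 2 kb to either side. Peaks inside genes held Sox in 59.6%, E-boxes in 67.3%, Runx in 69.5% and Tead/MCAT in 30.2%. For peaks beyond 20 kb these shares were 56.7, 63.3, 65.6 and 23.7%. The motif content was thus not particular to flanking peaks. A Sox match was present in 61.0% of upstream windows (51.6 to 69.9%) and 52.7% of downstream windows (42.0 to 63.3%), against 26.6% of the windows 2 kb away and 16.3% of windows of the same length centred on all gene starts. An E-box was present in 66.1% upstream (56.8 to 74.6%) and 70.3% downstream (59.8 to 79.5%), against 24.4% and 24.5%. Runx matches were in 78.0% upstream (69.4 to 85.1%) and 60.4% downstream (49.6 to 70.5%), against 43.3% and 39.6%. The Runx intervals of the sides overlapped narrowly, and the windows 2 kb away held 47.0% and 38.5%. Tead/MCAT matches were in 29.7% on each side, against 9.57% and 7.74%. A Sox match and an E-box together were in 38.98% upstream and 42.9% downstream, close to the 40.4% of peaks inside genes. Median GC content was 48.0% upstream and 49.0% downstream, 45.8% in windows 2 kb away and 59.0% at gene starts. A match is a description of the letters and not a shown site.

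**Figure D5:**
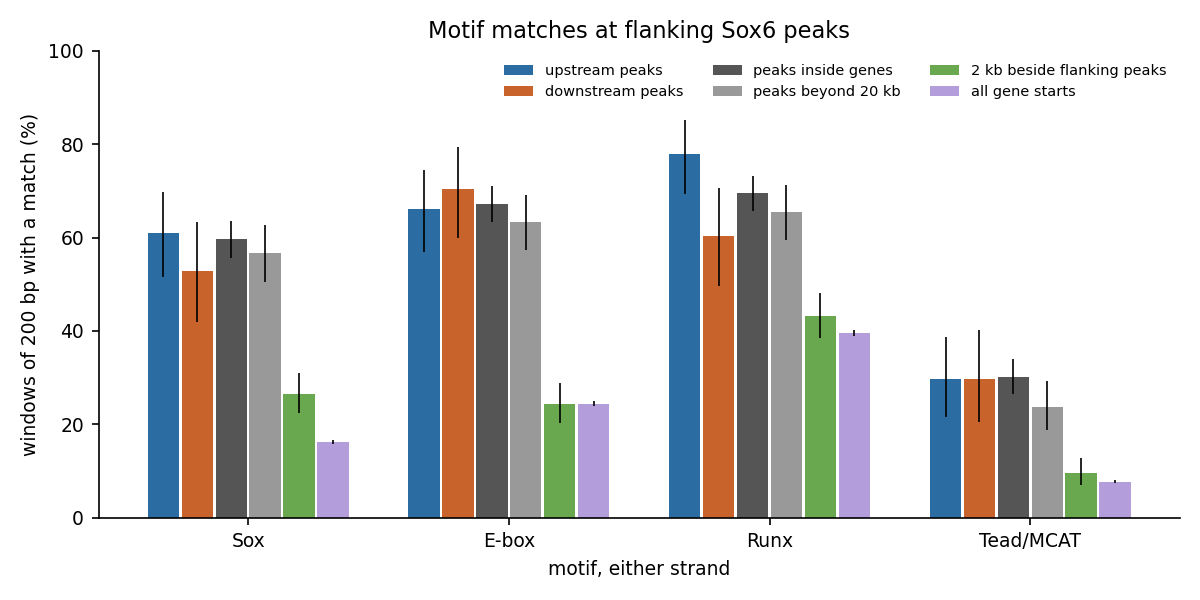
Share of 200 bp windows with at least 1 match on either strand (vertical axis, percent) for the 4 motifs (horizontal axis), at upstream and downstream peaks, other common peaks, windows 2 kb beside flanking peaks and all gene starts, with exact 95% binomial intervals. For each motif the bars of both sides are above those of the windows 2 kb away and of gene starts.

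The 209 peaks were also divided by Pol II ratio into 3 groups of 70, 69 and 70. From the lowest to the highest group, Tead/MCAT was in 38.6% (27.2 to 51.0%), 29.0% and 21.4% (12.5 to 32.9%) of windows. Runx was in 78.6% (67.1 to 87.5%), 73.9% and 58.6% (46.2 to 70.2%). E-boxes were in 58.6% (46.2 to 70.2%), 73.9% and 71.4% (59.4 to 81.6%). Sox matches were in 55.7% (43.3 to 67.6%), 63.8% and 52.9% (40.6 to 64.9%). For each motif the intervals of the lowest and highest groups overlapped.

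Of the other genes with more than 1 flanking peak, Epb4.1l2, a membrane skeleton protein, had 3 downstream, at 3741, 9681 and 10411 bp. Their Sox6 values were 5.36 and 6.13 RPM, 3.01 and 1.36 RPM, and 8.04 and 9.53 RPM, so the middle peak was the lowest in both libraries, and Pol II was above input at each. Palld, an actin-bundling protein, had peaks 5985 and 10345 bp upstream with 5.36 and 6.81 RPM and 4.35 and 6.81 RPM of Sox6, which overlap. Fchsd2 upstream had 5.36 and 8.17 RPM at 7434 bp and 11.1 and 11.6 RPM at 12974 bp. In the downstream pair of Gm4577 the peak at 11492 bp had 23.1 and 25.2 RPM and that at 12222 bp 2.68 and 5.45 RPM. The Bod1 pair differed likewise, with 8.71 and 8.85 RPM at 2870 bp and 2.68 and 2.04 RPM at 1830 bp.

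The 5 highest Sox6 ratios of each side are given as a description. Upstream they were at Kpna1, Hdac11, Atoh8, Myh7 (distal) and Wisp2, with log2 ratios from 6.64 to 5.33. Downstream they were at Gm4577, Rgr, Mboat1, Runx3 and Prss41, from 5.64 to 4.97. Kpna1, an importin that carries proteins into the nucleus, had 14.7 and 15.0 RPM of Sox6. Its ratio, and so its rank, rested on input replicate 1, which held no reads there, unlike input replicate 2. Atoh8, a basic helix-loop-helix factor, had 7.03 and 8.17 RPM of Sox6 at 18820 bp but 0.0455 and 0.371 RPM of input, so its ratio too rested on a low input. The peak 14941 bp downstream of Dpy19l2 had the lowest Sox6 log2 ratio, -0.999, with 23.1 and 15.0 RPM of Sox6 against 37.8 and 37.7 RPM of input, and Pol II was also below input there. It had the most input reads of all flanking peaks, and next downstream were Pclo (68 reads in both inputs together, against 1744 at Dpy19l2) and D830026I12Rik (51 reads), both with more Sox6 than input. Upstream, Trim55, Lpcat3 and, level with each other, Celf2 and Nobox had the most, at 37 to 45 input reads, also with more Sox6. Without the Dpy19l2 peak, summed Sox6 downstream was 11.4 and 14.7 times summed input in place of 6.33 and 8.38 times, beside 13.3 and 15.8 times upstream.

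The peaks just inside and just outside the limit of 20 kb are given as a description. Just inside were Tbca (19747 bp, log2 ratio of Sox6 4.20) and Wisp2 (19874 bp, 5.33) upstream, and B230206F22Rik (19705 bp, 3.77) and Col1a2 (19838 bp, 3.02) downstream. Just outside were Mamld1 (20350 bp, 4.43) and Slc6a6 (21480 bp, 3.24) upstream, and Ly6c2 (21389 bp, 1.11) and D830050J10Rik (21584 bp, 4.48) downstream. Nearest to a gene by its longest model were Chrna1, Chrng and Myh7 upstream, and D830026I12Rik (19 bp), Mfap1b (90 bp) and Tmem182 (239 bp) downstream. Tmem182, a membrane protein of muscle, had 6.36 and 5.45 RPM of Sox6, and Pol II over the gene was 3.59 and 3.48 RPKM.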

How the data were processed

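Per the labels and the study's methods, the authors aligned single-end reads to mm9 with Bowtie 0.12.5, retained uniquely mapped reads, and ran the peak caller SISSRs on each library with its input as background. Peaks found in both Sox6 libraries form the common list. They deposited read positions and peak positions, with no count, normalized level or p-value. Scores in the peak files were not used. From these, reads whose 5' end fell in 450 bp around each peak centre were counted, or over the longest model of each of 23274 GENCODE genes with a RefSeq transcript, matched by symbol (20657) or older symbol (2617), and scaled to library size (RPM, RPKM).

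For each of Sox6 and Pol II against input, limma 3.58.1 (R 4.3.3) with a trend was fitted to log2 RPM with 0.5 reads added, over all 1066 common peaks or all genes, with Benjamini-Hochberg adjustment at 0.05, which is the threshold for every call in the report. The 0.5 reads weigh more in the shallower ChIP libraries, so small positive ratios at low counts lean upward. Every adjusted p is from this fit. Sides were compared by an exact permutation test over libraries. Shares carry exact 95% binomial intervals, densities exact Poisson intervals, both for counting error only. Because PCR copies are not independent molecules, repeated positions (2.96 to 7.88% of reads) were counted once as an alternative.

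Named peaks were those beside listed genes, with the largest Sox6 or called Pol II ratios, nearest to a gene, at the 20 kb limit, sharing a gene, or with most input reads. The peaks, gene lists and rule were chosen with earlier results of these data known.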

Additional observations from a re-analysis of the deposited data

How the results depend on the processing

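The count of flanking peaks with more Sox6 than input was 206 to 208 under every alternative, left-out libraries included, and 197 of 199 without the 10 peaks above a Pol II log2 ratio of 5 (chosen after seeing the data). For Pol II it was 115, between 83 and 124 under the alternatives that kept all libraries, and 105 of 199 without the same 10. With each library left out it ranged from 60 (without input replicate 1) to 119 (without Pol II replicate 2), and 60 of the calls without input replicate 1 were among the 115. The fit then has fewer samples. Over genes the count was 108, with 101 to 112 when a library was left out and 103 to 115 otherwise. The difference between the sides ranged from -0.06 to 0.13 for Sox6 and from -0.59 to -0.06 for Pol II when a library was left out. For Sox6 it changed sign with a window of 200 bp (-0.14), with reads moved by 75 bp (-0.12) and without the same 10 peaks (-0.07). The permutation test cannot go below 0.333 with these libraries, so it could not decide on the difference under any setting. With 10 kb in place of 20 kb there were 75 upstream and 66 downstream peaks, and with 50 kb 172 and 125.

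With the replicate number as a block (replicate block), 208 flanking peaks were called for Sox6, 111 for Pol II and 109 genes. Of these 207, 111 and 107 were among those called without it. The block called 96.3% and 55.0% of all common peaks and 39.8% of all genes. The paper gives each ChIP experiment its own input as background, but the labels do not say whether the replicate numbers follow those experiments. Deviations of same-numbered libraries were not correlated (-0.02 for Sox6 and -0.03 for Pol II over 1066 peaks), so the block was not used.

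In the deposited peak intervals a Sox match was in 49.3% of flanking peaks, an E-box in 54.1%, Runx in 62.2%, Tead/MCAT in 22.0%, Sox with E-box in 29.2% and none in 7.66%. In 400 bp the shares were 73.2, 81.8, 85.2, 39.7, 61.7 and 0.478%. A longer window holds more matches by construction. Windows 5 kb away held Tead/MCAT in 13.4%, against 9.57% in windows 2 kb away, the largest move among the windows beside the peaks. Low reads limit Pol II at single peaks: the median window held 2 and 4.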
